A study of Heliocidaris erythrogramma with 5 samples.

Results

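The genes described here are the 59 members, of 10112 genes measured at a mean of at least 5 counts in 1000000, whose level was higher at each successive age in larvae of the sea urchin *Heliocidaris erythrogramma* (*He*) and ended at least 4-fold up, which is 0.583% of those genes. A ratio of at least 4 alone was reached by 141 genes (1.39%), and a higher level at each step by 351 (3.47%). They were chosen from the measured levels themselves. Unique molecular identifiers (UMIs, the tags by which each captured RNA molecule is counted once) were summed over all cells of a library and scaled to counts in 1000000 of that sum (CPM). A member had a mean of at least 5 CPM over the 5 libraries, a higher level at each of the 4 steps between 36, 42, 48, 56 and 60 hours post fertilization (hpf), and a ratio of (60 hpf + 1) over (36 hpf + 1) of at least 4. The levels by age, the ratios and every share or cluster drawn from the same cells are therefore descriptions, with no test. Of the 59 members, 46 carry a symbol in the deposited annotation, 13 of them as hypothetical proteins (Hypp), and 13 are known only by a gene model ID.

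The study profiled whole larvae by droplet single-cell RNA-seq, with 1 library at each of 36, 42, 48, 56 and 60 hpf and no genotype or treatment named in the labels. Larvae were taken apart with glycine and EDTA, the cells were fixed in methanol, and all libraries were sequenced on 1 flow cell. For the library labelled 56 hpf, the names of the deposited files and the methods text both have 54 hpf; the labelled age is used throughout, and the length of both steps next to it is uncertain. With 1 library per age, the spread between animals or cultures is unknown, intervals cover counting error only, and age and library cannot be told apart.

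*He* develops through a non-feeding larva, and the adult body is built inside it as a rudiment within days. Over the same period the larval and early adult nervous system forms, and neurons come to express receptors, ion channels and the proteins that release transmitter vesicles. Ectoderm, blastocoelar cells (migratory, immune-type cells of the body cavity) and pigment cells differentiate alongside. Genes of differentiated cells, such as channels, transporters and detoxifying enzymes, commonly come on in such a period. In a sum over whole larvae, more RNA per cell and more cells of a type both raise the level of such a gene.

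The 5 libraries held 5314, 4268, 4080, 4106 and 8972 cells after filtering at 36, 42, 48, 56 and 60 hpf, or 26740 of 26781 barcodes, with 4193645 to 12136079 UMIs per library and a median of 814 to 1634.5 UMIs per cell. In all, 71 barcodes occurred in more than 1 library, and any pair of libraries shared 4 to 12. No cells were removed as doublets. Cells were grouped into 49 clusters with the members left out of the clustering, and clusters were named only from marker genes other than the members.

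Together the members took 0.0946, 0.126, 0.262, 0.412 and 0.572% of all UMIs at 36, 42, 48, 56 and 60 hpf. Their median level was 4.38, 6.14, 15.1, 24.8 and 33.1 CPM at those ages. The median ratio between 60 and 36 hpf was 5.27, with a range of 4.1 to 33.9, against a median of 0.95 over all 10112 genes. *Gsn*, which encodes gelsolin, a protein that severs and caps actin filaments, alone made up 17.1% of the member UMIs at 60 hpf.

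In CPM, the increase was not evenly spread over time. The median step ratio of the members was 1.36 between 36 and 42 hpf, 1.84 between 42 and 48 hpf, 1.60 between 48 and 56 hpf and 1.42 between 56 and 60 hpf, while the medians over all genes were 0.894, 1.06, 1.21 and 0.820. The largest step lay between 42 and 48 hpf in 28 members, between 48 and 56 hpf in 18, between 56 and 60 hpf in 7 and between 36 and 42 hpf in 6. The counting intervals of the ages on either side were apart in 43, 36, 36 and 15 members at those steps, in the same order. All 4 steps were apart in 7 members and none in 3, so the steadiness required by the rule rested for many members on differences within counting error. The steps also depend on the scaling: with DESeq2 size factors, 48 of the members were higher at every step. The largest steps were not counted over all genes or with other size factors, so their order in time holds for CPM only.

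**Figure D1:**
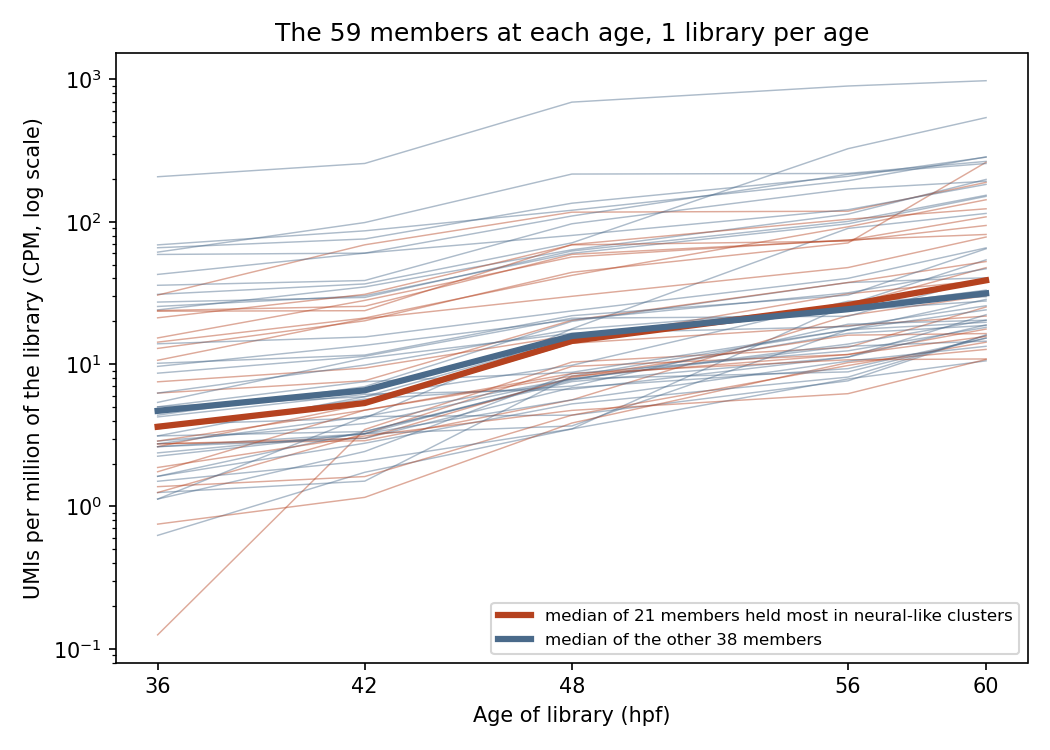
Level of each of the 59 members (thin lines, CPM on a log axis) against the age of the library in hpf, with the medians of the 21 members held most in neural-like clusters and of the other 38 as thick lines. The medians lie at 38.8 and 31.4 CPM at 60 hpf, and at 3.63 and 4.69 CPM at 36 hpf.

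At the ratio threshold, the members just inside were *Glur6_2* with 4.1, *aminotransferase* with 4.11 and *Hypp_1407* with 4.17. The genes just outside were HER_29171.t1 with 3.99, *Slc16a14_1* with 3.97 and HER_7859.t1 with 3.96. At the level threshold, *Hypp_1701*, *Glur6_2* and *Hypp_1363* were just inside, with means of 5.10, 5.35 and 5.74 CPM, while *MucB* was among those just outside with 4.18 CPM. A further 82 genes reached a ratio of 4 without being higher at every step, and 50 of these were lower at 60 than at 56 hpf. Over all genes the median step ratio between those ages was 0.820, so a lower level there is not particular to these genes.

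More cells had a UMI of a member at 60 than at 36 hpf. After each cell was thinned to 500 UMIs, so that depth was equal, the median share of cells with a UMI of a member was 1.44% at 60 hpf and 0.226% at 36 hpf. The median ratio of these shares was 5.58. The UMIs per detecting cell had a median of 1.17 at 60 hpf and 1.03 at 36 hpf, close to the lowest possible value of 1, so that at this depth a higher level in the same cells and expression in more cells cannot be told apart. *Hypp_1701* differed, with a share ratio of 1.58 and a ratio of UMIs per detecting cell of 10.25. For *Gsn*, 35.2% of thinned cells had a UMI at 60 hpf and 10.6% at 36 hpf.

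Member UMIs were detected in most cells at the later ages, but few cells had many; the share that free RNA alone would give was not measured. Among thinned cells, 34.4, 41.4, 63.3, 77.2 and 85.3% had a UMI of any member at 36, 42, 48, 56 and 60 hpf, and 1.43, 3.14, 8.82, 20.1 and 32.4% had UMIs of at least 3 members. Cells that gave at least 2% of their UMIs to the members numbered 7, 9, 22, 61 and 220. Neural-like cells were 7, 9, 21 and 31 of these at 36, 42, 48 and 56 hpf, and 60.5% of them at 60 hpf. The highest single cell gave 20.6% of its UMIs to members, at 60 hpf.

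At 60 hpf the members were packed into fewer cells than most genes. The number of cells with a UMI was set against the number expected if the UMIs of the gene were spread over all cells in proportion to their depth. The median was 84.8% of the expected cells for the 59 members and 97.9% for all genes. Under 80% fell 27 members (45.8%) and 5.16% of all genes, or 6.14% of the 7040 genes with UMI totals in the same range. The extremes were *Hypp_1140*, with 3181 UMIs in 271 cells or 10.8% of the expected number, and *Syne1*, which encodes a nesprin that links the nucleus to the cytoskeleton, with 99.3%. *Syne1* is named here after its value was seen.

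**Figure D2:**
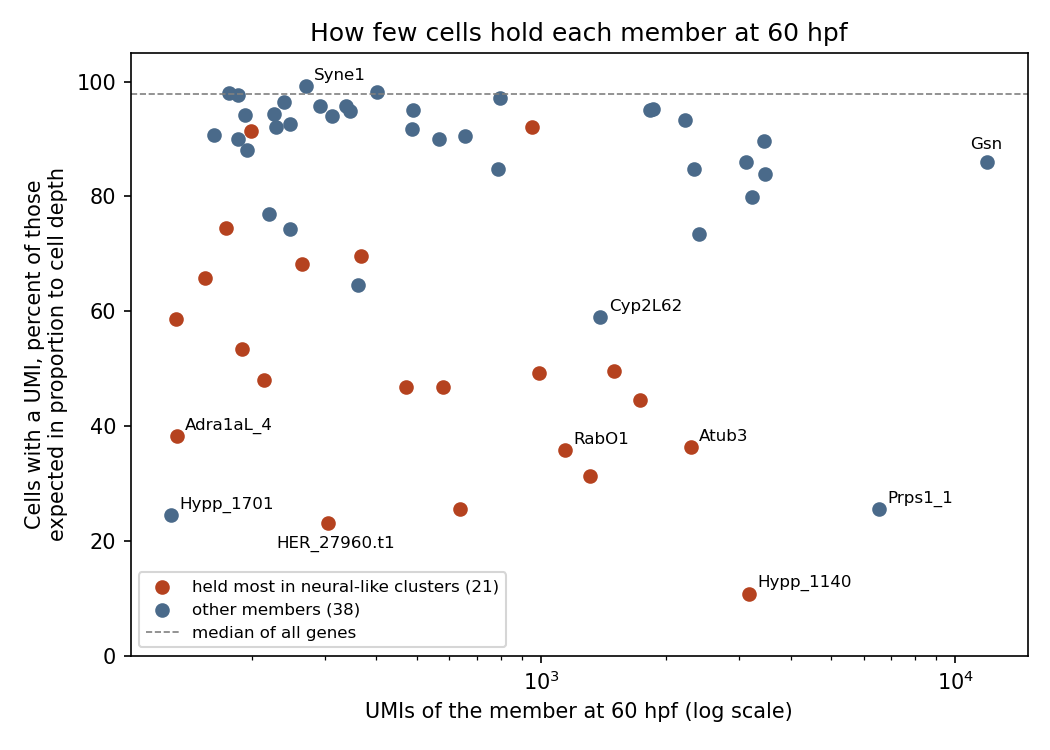
Cells with a UMI at 60 hpf, as a percentage of the cells expected in proportion to depth, against the UMIs of the member at 60 hpf on a log axis; each point is 1 member. The 21 members held most in neural-like clusters have a median of 48.1% and the other 38 a median of 91.3%, with the median of all genes, 97.9%, as a dashed line.

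Neural-like cells were the single group that held the most members. They comprised 7 clusters (18, 34, 36, 37, 39, 47 and 48) and 1188 cells, led by markers such as *Secrtag*, *CalmL1*, *Otp*, *NeuroD*, *Phox2* and *Sert*. Cluster 36 had no neural marker among its 10 leading genes, and some results, but not all, are also given without it. Neural-like cells held 5.55% of all UMIs. For 21 members a neural-like cluster held the largest share of the UMIs, and a median of 79.4% of the UMIs of these 21 members was in neural-like cells, with at least 50% in 16 of them. For the other 38 members the median was 4.79%, and the highest was 31.5%. The share of all genes held most in a neural-like cluster was not computed, so the 21 have no background count beside them. The groups overlap, since the lowest share among the 21 was 17.2%, and *Trpc5*, among them, had 27.9%. With other clusterings (a lower resolution, log-normalized counts, or the members put back), 21 members were again held most there, of which 20, 20 and 21 were the same.

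**Figure D3:**
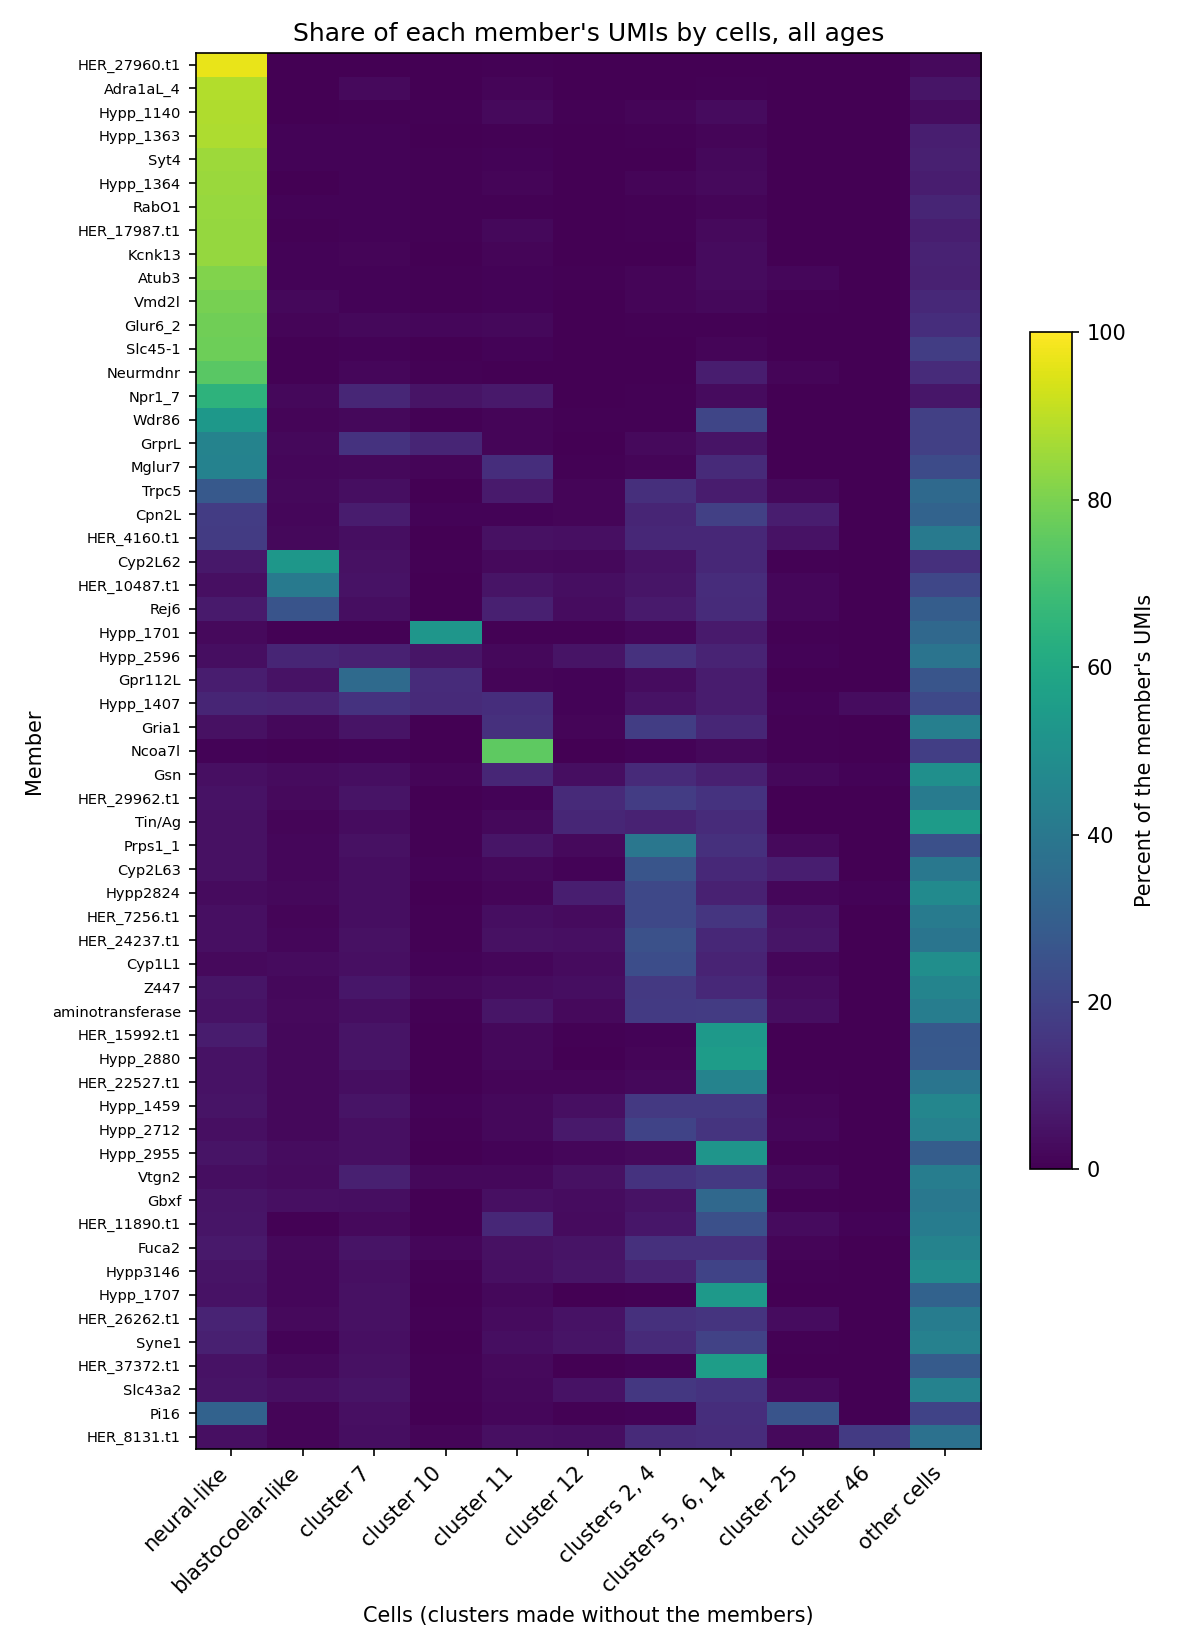
Percentage of the UMIs of each of the 59 members (rows) that lay in each group of cells (columns), over all ages, on a color scale from 0 to 100%. The 21 members at the top are those held most in neural-like clusters, with a median of 79.4% of their UMIs there.

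The neural-held members included several receptors and channels. *Npr1_7* belongs to the natriuretic peptide receptor family, whose members are guanylate cyclases, and had 14.3, 21.1, 42.1, 92.3 and 143 CPM at 36, 42, 48, 56 and 60 hpf. *GrprL*, named for the gastrin-releasing peptide receptor, a G protein-coupled receptor, had 7.51, 9.38, 15.9, 26 and 47.6 CPM. *Adra1aL_4*, named for the alpha-1A adrenergic receptor of vertebrates, had 1.75, 4.75, 8.59, 10.7 and 10.9 CPM. In *Adra1aL_4* the levels at 56 and 60 hpf were within counting error of each other, and 85.1% of its UMIs lay in the single cluster 18, led by *Secrtag*, *Stmn1*, *CalmL1*, *Otp* and *Vacht*.

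Among the channels, *Trpc5*, a TRP-type cation channel gene, had 2.75, 2.90, 5.61, 21.9 and 30.2 CPM over the 5 ages. *Kcnk13*, of the tandem-pore potassium channel family, had 2.63, 5.21, 14.0, 18.6 and 21.8 CPM. *Glur6_2*, named for a kainate-type glutamate receptor subunit, had 1.88, 3.13, 4.73, 6.2 and 10.8 CPM. The main jump thus came at 48 to 56 hpf in *Trpc5* and earlier, at 42 to 48 hpf, in *Kcnk13*. *Vmd2l*, of the bestrophin family of anion channels, had a ratio of 4.29, and none of its 4 steps had intervals apart.

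*Syt4*, a synaptotagmin of secretory vesicles, and *RabO1*, a Rab-type GTPase of membrane traffic, had similar courses. *Syt4* had 15.3, 28.0, 56.6, 74.6 and 81.5 CPM at 36, 42, 48, 56 and 60 hpf, and *RabO1* had 21.2, 30.9, 68.9, 73.2 and 94.3 CPM. *Atub3*, an alpha-tubulin gene, had 30.6, 68.9, 117, 119 and 189 CPM. *Syt4* and *RabO1* both took their largest step between 42 and 48 hpf, and the counting intervals of *Atub3* overlapped between 48 and 56 hpf. Of thinned cells at 60 hpf, *Syt4* had a UMI in 30.9% of the 582 neural-like cells and 0.314% of the 956 cells of clusters 7 and 10, whose median depths were 1537.5 and 963.5 UMIs before thinning. The same shares were 27.3 and 0.523% for *RabO1*, and 45.9 and 1.26% for *Atub3*.

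HER_27960.t1, which has no symbol, was the most nearly confined of the neural-held members, with 0.13, 3.48, 10.3, 13.1 and 25.2 CPM over the 5 ages. It had 1 UMI at 36 hpf and 306 UMIs in 69 cells at 60 hpf. Its fold change of 201 has a counting interval of 35.9 to 7980, so only its lower limit is informative. *Hypp_1140* was held by a very small cluster, number 48, with *Hypp_2891*, *Secrtag* and *Mab21l2* among its leading genes. That cluster had 21 cells in all, 16 of them at 60 hpf, 3 at 56 hpf, 2 at 48 hpf and none earlier, and held 59.4% of the *Hypp_1140* UMIs over all ages. *Hypp_1364* and *Hypp_1363*, with consecutive gene model IDs, had ratios of 8.60 and 7.82; whether they share reads was not tested.

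Neural-like cells became a larger part of the libraries. They numbered 77, 92, 175, 262 and 582 at 36, 42, 48, 56 and 60 hpf, which is 1.45% (95% Clopper-Pearson interval 1.15 to 1.81%), 2.16, 4.29, 6.38 and 6.49% (5.99 to 7.02%) of cells. Their share of UMIs was 1.55% at 36 hpf and 9.07% at 60 hpf. Leaving out cluster 36, they were 3.97, 5.21 and 5.94% of cells at 48, 56 and 60 hpf, and 8.11% of UMIs at 60 hpf. Within all neural-like cells the members took 0.816, 0.914, 0.882, 0.828 and 1.41% of UMIs. Without cluster 36, which had no cells before 48 hpf, these shares were 0.816, 0.914, 0.952, 1.03 and 1.54%, higher at each age. In cluster 18 alone they were 0.782, 1.01, 1.35, 1.37 and 1.40%. At 60 hpf, 16 cells of cluster 48 gave 2635 of the 15547 member UMIs of neural-like cells. The shares over all neural-like cells thus also depend on the mix of clusters among them. In single-cell libraries of 1 dissociation each, more cells of a type in the larva and better recovery of that type cannot be told apart.

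The ratio of each member was also computed with only 1 side changed. With the cluster shares of 60 hpf and the within-cluster levels of 36 hpf, the median ratio of the 21 neural-held members was 3.21. With the cluster shares of 36 hpf and the levels of 60 hpf, it was 2.34. The shares gave the larger ratio in 12 of these 21 members and in 0 of the other 38, whose medians were 0.897 and 4.16. At the lower clustering resolution the counts were 10 of 21 and 1 of 38, and with log-normalized counts 14 of 21 and 2 of 38. The split is limited by clusters that were nearly absent early: 18 clusters with under 20 cells at 36 hpf held 49.6% of the UMIs at 60 hpf, and where such a cluster had no member UMI at 36 hpf its growth could not count toward the shares. With the 36 hpf levels of those clusters set to their 60 hpf levels, the medians from the shares were 4.39 for the 21 neural-held members and 3.14 for the other 38, and the shares gave the larger ratio in 14 and 7 members. How far the shares of late clusters account for the other 38 members therefore depends on a level that was not measured at 36 hpf.

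**Figure D4:**
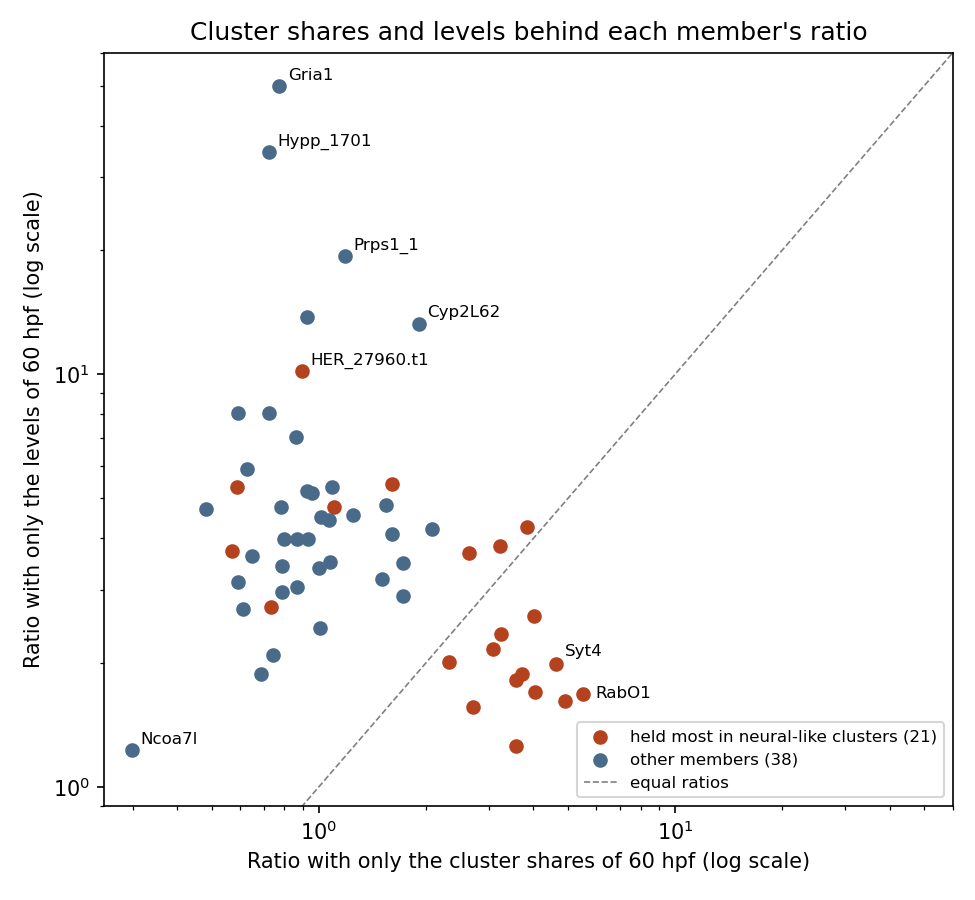
For each member, the ratio between 60 and 36 hpf with only the within-cluster levels changed (y axis) against the ratio with only the cluster shares changed (x axis), both on log axes. Points below the dashed line of equal ratios are 12 of the 21 neural-held members and none of the other 38; with the 60 hpf levels set in for clusters with under 20 cells at 36 hpf, not plotted, they would be 14 and 7.

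*RabO1* showed the neural pattern most clearly, with a ratio of 5.50 from the shares and 1.68 from the levels. For *Syt4* these were 4.64 and 1.98. *Gria1*, which is not neural-held, lay at the other end, with 0.774 from the shares, or 15.7 with the 60 hpf levels set in, and 49.8 from the levels. HER_27960.t1 was neural-held and also changed by level, with 10.2 from the levels and 0.899 from the shares, or 8.08 from the shares with the 60 hpf levels set in.

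Inside the neural-like clusters several of these genes were no higher at 60 hpf. *Syt4* had 864 CPM (708 to 1044) at 36 hpf, then 985, 861, 727 and 746 CPM (696 to 799) at 42, 48, 56 and 60 hpf within these cells. *RabO1* had 1122, 1058, 1034, 659 and 884 CPM there. *Atub3* had 1268, 2233, 1686, 1133 and 1700 CPM there. None of these 3 courses was steady within the neural-like cells, and those of *Syt4* and *RabO1* were lower at 60 than at 36 hpf. Without cluster 36 they remained lower at 60 hpf, at 830 CPM for *Syt4* and 976 CPM for *RabO1*, against the same 36 hpf levels. For *Syt4* both 60 hpf values lie inside its 36 hpf interval, so the difference is within counting error. The 36 hpf levels of both genes rest on 77 neural-like cells.

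Others did increase within the neural-like cells. *Npr1_7* had 436, 575, 509, 688 and 1010 CPM at the 5 ages in these cells. *GrprL* had 1 UMI there at 36 hpf, 1 at 42 hpf and 343 UMIs or 312 CPM at 60 hpf, of which 62 came from 1 cell. *Hypp_1364* had 145, 166, 191, 319 and 372 CPM, an increase at each age, but without cluster 36 it had 422 CPM at 56 hpf and 414 CPM at 60 hpf. Over the 21 neural-held members, the median ratio inside neural-like cells was 2.01, with 5 members at 4 or more and 5 under 1, and without cluster 36 the median was 2.19, with 5 members at 4 or more and 3 under 1. HER_27960.t1 had no UMI there at 36 hpf, and at 60 hpf it was at least 10.99-fold higher, against a floor of 3 counts in the 36 hpf library.

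The same 21 members were also higher at 60 hpf outside the neural-like cells, where their median ratio was 3.43 and the lowest was 1.90. *Syt4* had 15.2 CPM outside at 60 hpf and 1.91 CPM at 36 hpf. *RabO1* had 15.5 CPM there at 60 hpf and 3.82 CPM at 36 hpf. The level outside as a percentage of the level inside lay in a narrow range for many of these genes at 60 hpf: 2.04% for *Syt4*, 1.75% for *RabO1*, 2.27% for *Atub3*, 2.27% for *Kcnk13*, 1.42% for *Hypp_1140* and 1.57% for *Adra1aL_4*. It was under 3% in 13 of the 21 members. *Trpc5*, at 21.9%, and *Npr1_7*, at 5.58%, were among those above that range, and the highest was 48.5%. The part of free RNA from neural-like cells in these outside levels was not tested, and the neural share of UMIs grew over the same ages. Clusters 30, 31 and 41, left unnamed although neural markers were their best match, were counted as outside. Cluster 41 had 9 cells at 36 hpf and 36 at 60 hpf, and was among the top 3 clusters by *RabO1* UMIs. The part of these clusters in the outside levels was not tested.

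**Figure D5:**
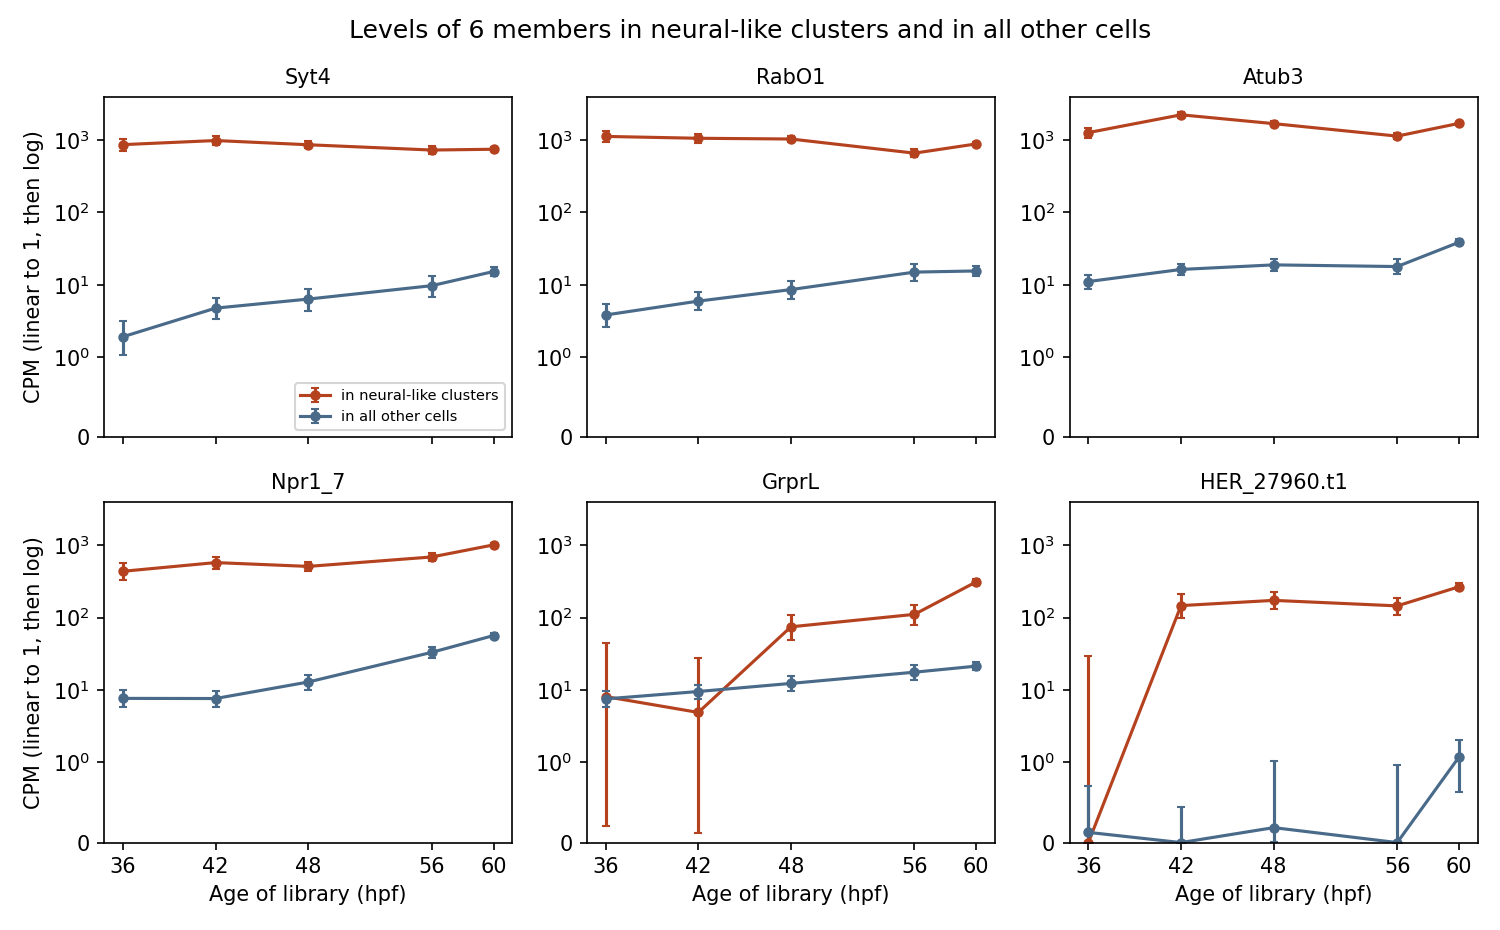
Level in CPM (linear up to 1, then logarithmic) of 6 members in neural-like clusters (red) and in all other cells (blue) against age in hpf, with 95% Poisson intervals. In neural-like cells *Syt4* and *RabO1* are no higher at 60 than at 36 hpf, with overlapping intervals for *Syt4*. Outside them both are higher at 60 hpf. *Npr1_7*, *GrprL* and HER_27960.t1 are higher at 60 hpf inside and outside neural-like cells.

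Neural-held members were often found in the same cells. Among thinned cells, 136 pairs of neural-held members had at least 1 cell expected to hold both if the genes were independent within a library, and the median of observed over expected cells was 6.68. The count was at least 2 times the expected number in 117 of these pairs. *Syt4* and *RabO1* met in 148 cells, 20.1 times the expected number, and *Atub3* and *Syt4* met in 188 cells, 13.5 times. Pairs of 1 neural-held and 1 other member had a median of 0.644, and pairs with no neural-held member had a median of 1.01. The neural-held members were grouped because a neural-like cluster held the largest share of their UMIs. Genes held by the same clusters meet more often than independence over a whole library gives. The contrast between these kinds of pairs therefore follows from the grouping and is not a separate result. Whether neural-held members meet more often than independence gives within neural-like cells alone was not tested. Cells are not replicates, and these counts describe how the cells are mixed in the libraries.

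*Gria1*, which was not held by a neural-like cluster, had the highest ratio of all members when all cells were summed. It is named for an AMPA-type glutamate receptor subunit and had 0.63, 1.74, 3.50, 26.2 and 54.1 CPM at 36, 42, 48, 56 and 60 hpf, on 5 UMIs at 36 hpf and 656 at 60 hpf. The fold change was 86.4, with a counting interval of 36.8 to 267. Although it encodes a receptor subunit best known from neurons, only 0.859% of thinned neural-like cells had a UMI at 60 hpf, against 8.03% of posterior ectoderm-like cells, 4.66% of cells of cluster 11, which is rudiment ectoderm-like with *Egfi* and *Egfiii* among its leading genes, and 4.00% of clusters 2 and 4. In posterior ectoderm-like cells it had 0, 0, 10.7, 97.4 and 170 CPM over the 5 ages.

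*Ncoa7l* and *Gsn* were the other members held most in cluster 11. *Ncoa7l*, named for a nuclear receptor coactivator, had 75.2% of its UMIs there, and 11.7% of thinned cells of that cluster had a UMI at 60 hpf, against 0.105% in clusters 7 and 10. Within cluster 11 it had 41.8, 78.5, 157 and 197 CPM at 42, 48, 56 and 60 hpf, and no UMI in the 11 cells of the cluster at 36 hpf. *Gsn* was broad: it had 207, 257, 693, 900 and 980.5 CPM over the 5 ages, a UMI in 60.0% of posterior ectoderm-like and 20.3% of neural-like thinned cells at 60 hpf, and only 10.7% of its UMIs in its leading cluster. In posterior ectoderm-like cells it had 596, 962, 1954, 2283 and 2030 CPM, so that it was not steady within them.

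The 3 members of the cytochrome P450 family, enzymes that oxidize steroids, lipids and foreign compounds, were not all held by the same cells. *Cyp2L62* had 3.76, 4.17, 17.7, 89.9 and 114.5 CPM over the 5 ages, a ratio of 24.3. It was held by blastocoelar-like cells, with 44.8% of its UMIs in cluster 29, with *A2col* and *Astacin4* among its leading genes. At 60 hpf, 66.2% of the thinned cells of that cluster had a UMI, and 2.62% of clusters 7 and 10. In blastocoelar-like cells its level was 259, 139, 774, 2523 and 1399 CPM, highest at 56 hpf. *Cyp2L63* had 1.13, 2.43, 8.59, 12.4 and 18.1 CPM and *Cyp1L1* had 5.01, 5.91, 15.1, 23.9 and 27.8 CPM, both held most in clusters 2 and 4.

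The other blastocoelar-held members were HER_10487.t1 and *Rej6*, named for the receptor for egg jelly family. *Rej6* had 134, 157, 255, 153 and 154 CPM in blastocoelar-like cells over the 5 ages, with intervals that overlap between the first and the last. HER_10487.t1 had 48.0, 71.9, 183, 188 and 139 CPM there. Neither was steady within those cells.

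Clusters 2 and 4 could not be named from the markers, and both had *Fzd4* among their leading genes. For 8 members the single cluster with the most UMIs was 2 or 4. *Prps1_1*, for phosphoribosyl pyrophosphate synthetase, the enzyme that supplies the sugar phosphate of nucleotides, had 30.9, 36.6, 71.1, 326 and 540 CPM over the 5 ages. Its UMIs were piled into few cells, with 6551 UMIs in 1070 cells at 60 hpf, 25.5% of the expected number. At that age 199 cells with at least 10 UMIs held 64.7% of them. Counted over all ages, 260 such cells were scattered, with 77 in cluster 4, 37 in cluster 5, 35 in cluster 2 and the rest across other clusters. In clusters 2 and 4 together, *Prps1_1* had 10.4, 490, 350, 1318 and 1829 CPM, on 1 and 28 UMIs at the first and second ages. The mix of these clusters changed: cluster 2 had 577 of the 700 cells at 56 hpf, and cluster 4 had 937 of 1527 at 60 hpf. Cluster 4 came mostly from 1 library, with 81.6% of its cells from 60 hpf. For *Prps1_1* in it, the cells and that library cannot be told apart.

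The remaining members of that group were spread widely. *aminotransferase* had 68.9, 86.4, 121, 194 and 286 CPM over the 5 ages, and at 60 hpf 24.1% of posterior ectoderm-like thinned cells and 19.8% of those of clusters 2 and 4 had a UMI. Over all ages clusters 2 and 4 held 16.9% of its UMIs, and clusters 5, 6 and 14 held 17.3%. *Z447*, a zinc-finger gene, had 65.7, 75.8, 135, 209 and 285 CPM. HER_24237.t1 had 35.8, 38.7, 96.9, 170 and 193 CPM.

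For 16 members the single cluster with the most UMIs was 5, 6 or 14, and it was cluster 5 for 10 of them. That cluster held 7.69 to 27.8% of the UMIs of each, with a median of 12.3%, so many were broad. Cluster 14 was cell division-like, with *Cdc20* and *Plk1* among its leading genes. Clusters 5 and 6 could not be named, and both had *FbsL_2* and *ZanL_2* among theirs. Cluster 5 had no cells at 36 hpf, so for its 10 members a change in shares and a change in levels cannot be told apart. *Hypp_2880* had 24.0, 34.9, 63.6, 113 and 199 CPM over the 5 ages, all 4 steps apart. At 60 hpf it had a UMI in 22.1% of thinned cells of clusters 5, 6 and 14, against 0.851% of clusters 2 and 4. HER_15992.t1 had 1.25, 1.51, 8.24, 17.4 and 19.7 CPM. *Slc43a2*, named for an amino acid transporter, had 42.7, 60.2, 80.3, 122 and 183 CPM, again with all 4 steps apart. Clusters 5, 6 and 14 together held 53.9% of the UMIs of HER_15992.t1. They held 14.8% of those of *Slc43a2*, and clusters 2 and 4 held 16.2%. For *Hypp_2712* these shares were 15.1 and 20.1%, and for *Hypp_1459* they were 16.4 and 16.7%. Cluster 5 came mostly from 1 library, with 0, 7, 26, 47 and 1037 cells at the 5 ages, so that for members in it the cells and the 60 hpf library cannot be told apart.

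The animal pole domain-like cells, with *Hbn* and *Fzd5/8* among their leading genes, held HER_29962.t1 and *Tin/Ag*, a matrix protein related to cathepsin B. Cluster 12 of these cells had the largest single share of their UMIs, only 12.1 and 10.9%. *Tin/Ag* had 61.2, 98.8, 217, 219 and 266 CPM over the 5 ages, and 36.7% of thinned animal pole domain-like cells had a UMI at 60 hpf, against 5.21% of posterior ectoderm-like cells. Within the animal pole domain-like cells it had 291, 521, 807, 949 and 914 CPM. Cluster 7, led by *Opsin2* and *Eh2*, was the single cluster with the most UMIs of *Gpr112L* (34.7%), *Hypp_1407* (14.6%) and *Hypp_2596* (9.20%). Cluster 10 was that of *Hypp_1701* (52.6%). *Hypp_2596* and *Hypp_1407* were broad. Clusters 2 and 4 together had 14.3% of the *Hypp_2596* UMIs and blastocoelar-like cells 10.2%, while cluster 11 had 13.3% of the *Hypp_1407* UMIs. *Gpr112L*, named for an adhesion-type G protein-coupled receptor, had 2.38, 3.24, 5.61, 10.5 and 13.3 CPM, with no step apart.

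*Hypp_1701* rested on single cells. It had 1.5, 2.09, 3.50, 7.87 and 10.5 CPM over the 5 ages, but 1 cell of cluster 10 held 95 of its 128 UMIs at 60 hpf, or 74.2%. Single cells also held 15 UMIs at 48 hpf and 17 at 56 hpf. Without the highest cell of each library its ratio was 1.56 and it no longer met the rule. Of the other 58 members, all kept a ratio of at least 4 when the highest cell was left out in the same way, and 55 of the 59 were higher at every step.

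In the lists of gene families, members were few beside related genes. A change of at least 2-fold up between 36 and 60 hpf was found in 6.59% of all genes tested, and a change of at least 2-fold down in 1215 genes (12%). Among 33 neurosecretory and synaptic vesicle genes, 8 were at least 2-fold up and 1 down, and *Syt4* was the member. Among 47 voltage-gated, TRP and other cation channel genes, 11 were up and 1 down, with *Trpc5* and *Kcnk13* as members. Among 14 ligand-gated channel genes, 5 were up and 0 down, with *Gria1* as the member.

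G protein-coupled receptors gave 16 of 83 genes up and 2 down, with *GrprL*, *Adra1aL_4* and *Gpr112L* as members. Of 37 cytochrome P450 genes, 6 were up and 1 down, and 3 were members. Of 227 solute carriers, 22 were up and 13 down, with *Slc45-1* and *Slc43a2* as members. The 341 DNA-binding transcription factor genes gave 23 up (6.74%) and 41 down, close to the shares over all genes, with *Gbxf* and *Z447* as members. Of 27 cell division genes, 20 were at least 2-fold down and none was a member.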

How the data were processed

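Whole larvae of *Heliocidaris erythrogramma* were profiled at 5 ages, 1 library each, with a droplet 3′ kit. The authors deposited raw UMI counts per gene model and cell barcode, made with Cell Ranger 3.1.0 per the labels; the submitters' processing notes also name Seurat 4.0, and the genome build is not given in the sources used here. Values were used as deposited.

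Cells with more than 200 genes, fewer than 10000 UMIs and fewer than 4000 genes were kept, UMIs were summed per library and scaled to CPM, and members were found by the rule. Each fold change is 60 over 36 hpf, with exact Poisson, conditional binomial or Clopper-Pearson intervals at 95%. Cells were thinned to 500 UMIs (seed 1), which leaves out 11 cells at 36 hpf and 509 at 56 hpf. Cells were clustered in Seurat 5.3.0 with sctransform 0.4.2 (6000 variable features less the members, 195 components, Louvain resolution 3). A cluster was called by a type, with "-like", from the marker list, members left out; a cluster whose leading genes went against its name is given by number. No doublet caller was run. The rule, the fold intervals and the thinned totals were tested on simulated data, while the clustering, naming, splits and co-detection were not.

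The named members are those with the 12 largest ratios, the 10 highest levels, a place in a gene list, a leading share in a cluster or a place beside a threshold, 44 in all; the other 15 are named only with a statement of that. Members, markers and gene lists were chosen with earlier results of these data known. The alternatives were other size factors (DESeq2 1.42.0, edgeR 4.0.16), cell filters, thinning, pseudocounts, level filters, clusterings and libraries left out. No sequences are shown, since none of the members was among the designed probes of the study.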

Additional observations from a re-analysis of the deposited data

How the results depend on the processing

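The rule gave 68 genes with DESeq2 size factors and 71 with TMM, of which 47 were members in each case. It gave 58 genes over all barcodes, 55 in cells with over 500 genes, 52 with libraries thinned to equal totals and 54 with equal weight per cell. In all 6 of these settings 26 members were kept, and 58 had a ratio of at least 2. A pseudocount of 10 left 12 genes, since it lowers every ratio above 1, and a mean of at least 20 CPM left 27, since fewer genes were tested. Leaving out 1 library at a time gave 66 to 97 genes, with 1 step fewer to meet: 66 without the 36 hpf library, of which 34 were members, 89 without the 56 hpf library and 97 without the 60 hpf library, of which only 29 were members. Without the first or the last library the ratio also ran between other ages. Chosen after seeing the data, leaving out the clusters mostly of the 60 hpf library (4, 5, 7, 45 and 48) gave 91 genes, with 53 members kept, and leaving out neural-like cells gave 51, with 41 kept, 4 of the 21 neural-held members and 37 of the other 38. Also chosen then, setting the 36 hpf levels of clusters with under 20 cells at 36 hpf to their 60 hpf levels gave 21 members, in place of 12, with the larger ratio from cluster shares. No paired analysis was possible because each age has 1 library. Depth limits the members with few UMIs: 15 had fewer than 20 UMIs at 36 hpf, and 5 had fewer than 10.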

Other observations

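The members in this section were chosen after their values were seen. HER_8131.t1, with no symbol, had 2.75, 4.29, 7.88, 8.82 and 15.2 CPM at 36, 42, 48, 56 and 60 hpf. At 60 hpf it had a UMI in 45.8% of the 24 thinned cells of cluster 46, a cluster with *Ese* and *Mtmmpc* among its leading genes, and in 0.172% of neural-like cells. *Pi16*, of the CAP family of secreted proteins, was held most in cluster 25, which had *Prdm14_1*, *Tgfb* and *SoxE* among its leading genes and held 26.1% of its UMIs, while 31.5% lay in neural-like cells over all ages. *Pi16* had 3.13, 5.91, 9.81, 27.7 and 29.7 CPM over the 5 ages.

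*Mglur7*, named for a metabotropic glutamate receptor, had 1.38, 1.62, 4.38, 9.78 and 14.3 CPM over the 5 ages and was held most in neural-like cells. *Wdr86* had 23.5, 23.8, 69.2, 104 and 123 CPM. Inside neural-like cells the ratio of *Wdr86* between 60 and 36 hpf was 0.948, but without cluster 36 it had 743 CPM there at 60 hpf and 702 CPM at 36 hpf, so that the direction turned. Outside neural-like cells the ratio of *Wdr86* was 5.08. For *Syt4* the ratios inside and outside were 0.864 and 5.58. *Fuca2*, for an alpha-fucosidase that removes fucose from glycans, had 6.26, 9.85, 17.5, 24.8 and 33.1 CPM and was spread over many clusters.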
